A study of Mus musculus with 6 samples.

Results

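The genes described here are the Wnt ligands, their Frizzled, Lrp and Ror receptors, the secreted inhibitors of the Sfrp, Dkk, Frzb and Wif1 families, and Axin2, a feedback target of the pathway. They were picked out by a rule on the gene symbol that uses no measured value, and 44 of the 35527 gene names on the array fit, with 53 of its 55681 probes. The samples were 3T3 cells, an established line of mouse fibroblasts, transfected with 50 nM of GapmeR Ntep or of GapmeR control and harvested after 48 h. A GapmeR is a short antisense strand through which RNase H cuts a chosen transcript, and Ntep is a long non-coding RNA studied for its part in cell proliferation. Both groups held 3 cultures, 1 per group in each of 3 independent experiments, and every culture was hybridised to 1 one-colour Agilent array. The comparison asks whether the genes that send, receive and block Wnt signals differed after the GapmeR against Ntep. It rests on 1 cell line and 1 GapmeR per group, without untransfected cells, and all 6 arrays lay on 1 slide.

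Wnt proteins are lipid-modified growth factors that act at short range. In the canonical branch they join a Frizzled receptor with Lrp5 or Lrp6, which holds back the complex of Axin, Apc, casein kinase 1 and Gsk3 that otherwise marks beta-catenin for destruction. In the non-canonical branches, often associated with Wnt5a, Wnt5b and Wnt11, Frizzled, Ror and Ryk receptors act on cell polarity and calcium. Secreted Sfrp, Frzb and Wif1 proteins bind the ligands, and Dkk proteins block Lrp5 and Lrp6. Fibroblasts are a common source of Wnt signals.

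Each probe is a 60-base oligonucleotide that reads 1 short stretch of 1 transcript. Bases 31 to 60 are shown for the genes on which the results turn, in lower case, with capitals for AATAAA or ATTAAA, the hexamers of polyadenylation signals. Positions are those of the array design in mouse build mm9. Whether a position lies in an exon or a UTR was not analysed here.
Wnt10a, chr1:74850633-74850692, + strand: ctctttgagacactctctggggaaaaagaa
Wnt6, chr1:74831461-74831520, + strand: gtttagtatcAATAAAgacatttaaatcca
Wnt5b, chr6:119382550-119382609, - strand: ccctttgacATTAAAtatctttttactgag
Fzd3, chr14:65854084-65854142, - strand: cgatgAATAAAattgaaggtgacaatattg
Lrp6, probe of lower signal, chr6:134404723-134404782, - strand: gcagttcttccagtaccaaaggcacttact
Lrp6, probe of higher signal, chr6:134400440-134400499, - strand: gaccaggagtgtctgggttttaacgatacc
A hexamer stood in these 30 bases in 8 of the 53 Wnt probes (15.1%) and in 10.74% of all probes. Over the 1369 pairs of probes to different genes of the group, the longest run of shared bases was 14, so the probes of Wnt10a and Wnt10b, or Wnt5a and Wnt5b, are distinct sequences.

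The probe for Ntep itself, named A630089N07Rik in the files, was well above background on all 6 arrays. In experiments 1, 2 and 3 its normalized signal reached 472, 91.5 and 226 under the label GapmeR Ntep and 271, 272 and 361 under GapmeR control. Values below follow the same order of experiments, GapmeR Ntep first. It was higher than its control in experiment 1, which goes against the label, and lower in the others. The log2 difference was -0.48 (SE 0.58, adjusted p = 0.632). The study itself reported lower Ntep in 3T3 cells 48 h after this GapmeR, by qPCR rather than by this probe. The sign of each difference below is that of the arrays labelled GapmeR Ntep minus the GapmeR control arrays.

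Between 43.7% and 53.3% of all probes were well above background per array, and none was saturated. As a check on the cell type, 9 of 10 fibroblast marker genes were well above background on all 6 arrays. Their summed signal was 653895 to 826987 on the arrays labelled GapmeR Ntep and 924762 to 1017180 on the control arrays, with Postn lower (log2 -1.27, adjusted p = 0.0544). Of the macrophage markers 5 of 8 were well above background on all arrays, and their summed signal was 43633 to 76034 against 21490 to 28199. Cd68, a lysosomal protein, was higher (1.21, adjusted p = 0.0287), as was Cd14 without passing adjustment (1.11, adjusted p = 0.0628), whereas Emr1 and Ptprc were well above background on no array. Epithelial markers summed to 6777 to 10410 against 5893 to 7835, and endothelial markers to 937 to 1087 against 933 to 1207. Cdh5, Cldn5 and Tek were well above background on no array, and Vwf was lower by 1 probe (-1.66, adjusted p = 0.0705). The part of these shifts in the results below was not tested. In bulk RNA, fewer cells of a type and less RNA per cell cannot be told apart.

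Which Wnt genes these cells expressed at a measurable level was read first. Of the 44 genes, 15 had a probe well above background on all 6 arrays, 19 had none on any array, and 10 lay between. The 8 ligands measured on all arrays were Wnt1, Wnt4, Wnt5a, Wnt5b, Wnt6, Wnt9a, Wnt10a and Wnt10b. The 7 receptors were Fzd1, Fzd2, Fzd3, Fzd4, Fzd7, Lrp5 and Lrp6. Wnt2, Wnt2b, Wnt3, Wnt8a and Wnt9b, and among receptors Fzd5, Fzd6, Fzd8, Fzd9, Fzd10 and Ror2, were well above background on no array. A probe that stays at background gives no measure of change.

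None of the 10 secreted inhibitors was measured on all arrays. Dkk1, Dkk2, Frzb and Wif1 were at the floor of 20 on all 6 arrays, and Dkk3, Sfrp2 and Sfrp4 were well above background on none. Sfrp5, a soluble Frizzled-like protein, was well above background on 3 arrays. It read 32.0, 56.2 and 26.3 on the arrays labelled GapmeR Ntep and 21.0, 149.6 and 163 on the control arrays, and the groups overlapped (log2 -1.15, SE 0.84, adjusted p = 0.442). Sfrp1 was well above background on 1 array labelled GapmeR Ntep, at 66.7, and Dkk4 on 1 control array, at 387. Dkk4 read 41.5, 24.7 and 20 against 20, 20 and 387, so 1 control array alone sets the sign of its difference (-0.97, SE 1.19, adjusted p = 0.638), and no fold is given. Both probes of Axin2, the feedback target often read as a reporter of canonical signalling, were well above background on no array. Of the 10 inhibitors, Sfrp5 and Dkk4 were the ones bright enough to be tested, and for the other inhibitors and Axin2 a difference was not detectable at this signal.

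**Figure D1:**
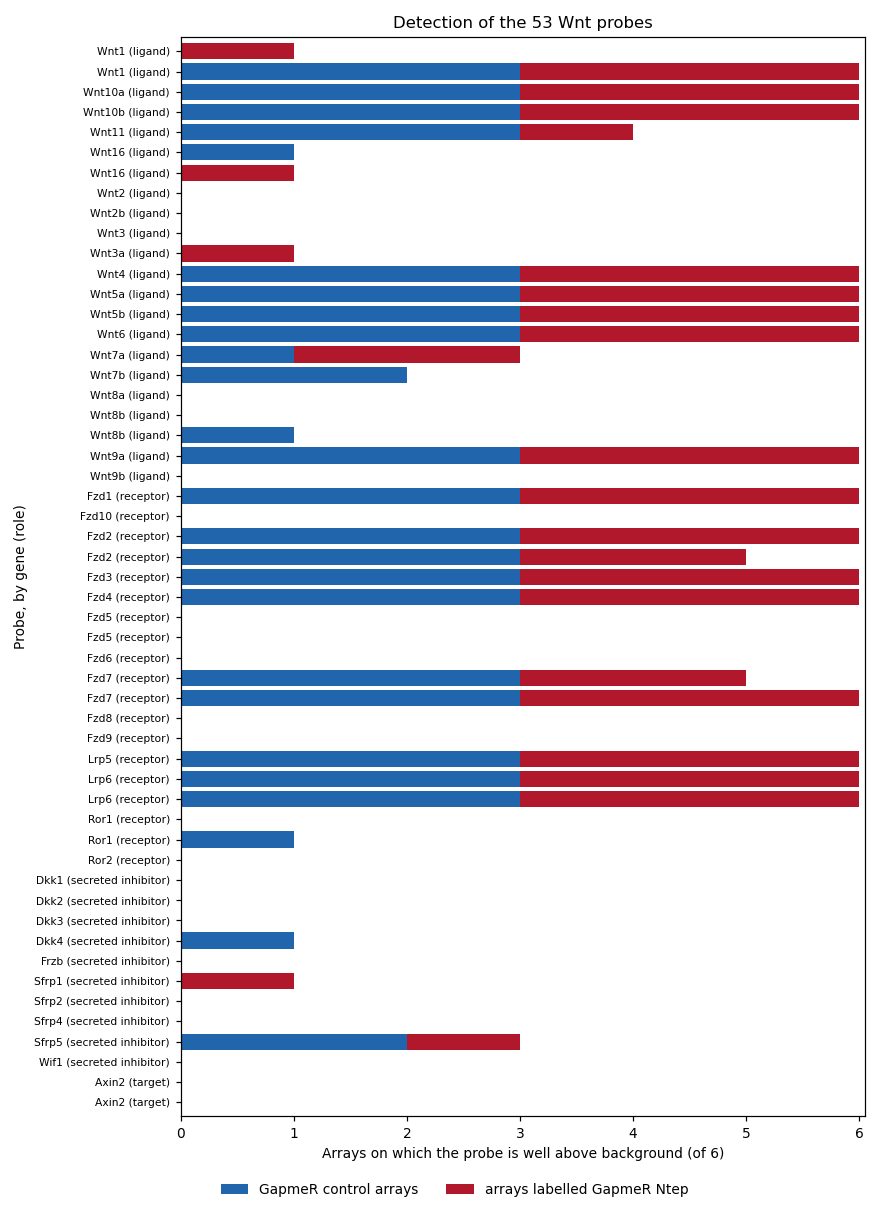
Number of arrays, of 6, on which each of the 53 probes was well above background, with the 3 GapmeR control arrays in blue and the 3 arrays labelled GapmeR Ntep in red. Full bars belong to 8 ligands and 7 receptors, and no secreted inhibitor has one.

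Of the 53 probes, 25 for 21 genes averaged 50 or more in 1 of the groups and entered the limma test. By the rule of the study, a 2-fold change with p under 0.01 before adjustment, 1 of them was higher (4.0%), beside 3.08% of all 30990 tested probes, and 1 was lower, beside 5.06%. After Benjamini-Hochberg adjustment over all tested probes at 0.05 it was again 1 higher, beside 2.09%, and 1 lower, beside 3.21%. The groups did not overlap in 4 higher and 4 lower probes (16% each), beside 17.0% and 15.1% of all tested probes. These shares lay near those of all probes. The median log2 difference of the 25 was -0.44, the value of Wnt7b, and that of all tested probes 0.06. Wnt7b, Wnt11, Sfrp5 and Dkk4 reached a mean of 50 in the control group alone, which favours a negative sign. A Wnt1 probe and a Wnt8b probe did so in the GapmeR Ntep group alone. This median is therefore not read as a shift of the group.

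**Figure D2:**
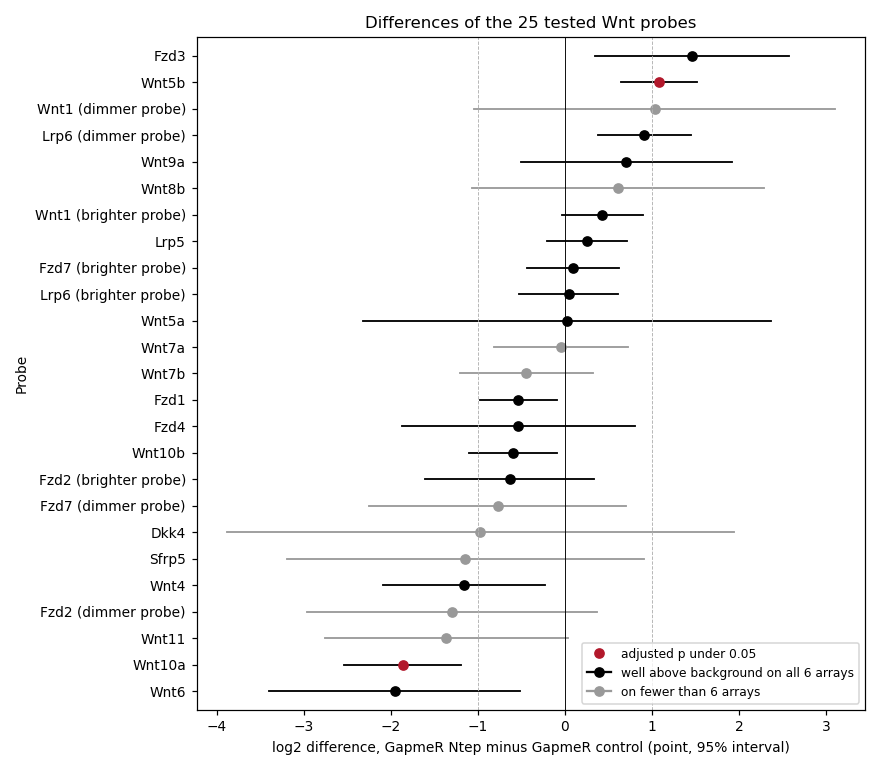
Log2 difference, arrays labelled GapmeR Ntep minus GapmeR control arrays, of the 25 tested probes, with 95% intervals from limma; grey marks probes that were not well above background on all 6 arrays. Wnt10a and Wnt5b, in red, had an adjusted p under 0.05, and Wnt6 and Fzd3 stand at -1.95 and 1.46 with wider intervals.

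Wnt10a, a ligand of the canonical branch, was the member called lower in the unpaired test. It read 302, 443 and 373 with GapmeR Ntep and 1814, 1029 and 1293 with GapmeR control. Every array labelled GapmeR Ntep was below every control array, and the group means were 373 ± 70.8 and 1379 ± 399 (SD, n = 3 each). The log2 difference was -1.87 (SE 0.27, 95% interval -2.53 to -1.20, adjusted p = 0.0288), a 3.64-fold lower signal. Experiments 1, 2 and 3 gave -2.59, -1.22 and -1.79.

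Wnt5b, a ligand mostly placed in the non-canonical branch, was the member called higher in the unpaired test. It read 2383, 1746 and 2137 on the arrays labelled GapmeR Ntep and 1009, 951 and 981 on the control arrays. The control arrays lay within a narrow range, and all arrays labelled GapmeR Ntep lay above it. Means were 2089 ± 321 and 981 ± 29.1 (SD, n = 3 each), with a log2 difference of 1.08 (SE 0.18, 95% interval 0.64 to 1.52, adjusted p = 0.0351), or 2.11-fold. The experiments gave 1.24, 0.88 and 1.12. For both genes the adjusted p rose above 0.05 when any array but that of GapmeR Ntep replicate 2 was left out (highest 0.125 for Wnt10a and 0.155 for Wnt5b), with log2 differences of -2.05 to -1.64 and 0.98 to 1.21. An exact permutation test of 3 against 3 cannot go below p = 0.1, which both genes reached.

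Wnt6, another canonical ligand, had a larger difference than Wnt10a and a wider spread. It read 296, 973 and 634 with GapmeR Ntep against 1105, 3147 and 3056 with GapmeR control. The groups did not overlap, and experiment 1 was the lowest in both. The difference of -1.95 (SE 0.59) did not pass adjustment (adjusted p = 0.110). With the experiment as a block it did (adjusted p = 0.0310), and the experiments gave -1.90, -1.69 and -2.27.

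Fzd3, a Frizzled receptor known for its part in axon guidance and tissue polarity, differed in the opposite direction. It read 3521, 1220 and 1798 on the arrays labelled GapmeR Ntep and 1076, 560 and 617 on the control arrays. Experiment 1 was the highest in both groups, and the groups did not overlap. The difference was 1.46 (SE 0.46, adjusted p = 0.119, blocked 0.0327), with 1.71, 1.12 and 1.54 by experiment.

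Lrp6, the canonical co-receptor, was read by 2 probes that gave different answers. The probe of lower signal, shown above as gcagttcttccagtaccaaaggcacttact, read 393, 573 and 480 against 217, 297 and 253. It was higher in every experiment, by 0.86, 0.95 and 0.93, for a difference of 0.91 (SE 0.22, adjusted p = 0.0690, blocked 0.0356). The probe of higher signal read 6276, 7396 and 9167 against 5885, 7715 and 8559. Its groups overlapped almost wholly, and the difference was 0.04 (SE 0.23, 95% interval -0.53 to 0.61, adjusted p = 0.923).

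With the experiment as a block, 5 of the 25 probes passed adjustment (20%), beside 13.8% of all tested probes. They were Wnt10a, Wnt6, Wnt5b, Fzd3 and the Lrp6 probe of lower signal. Wnt10a had a blocked adjusted p of 0.0404 and Wnt5b of 0.0345.

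**Figure D3:**
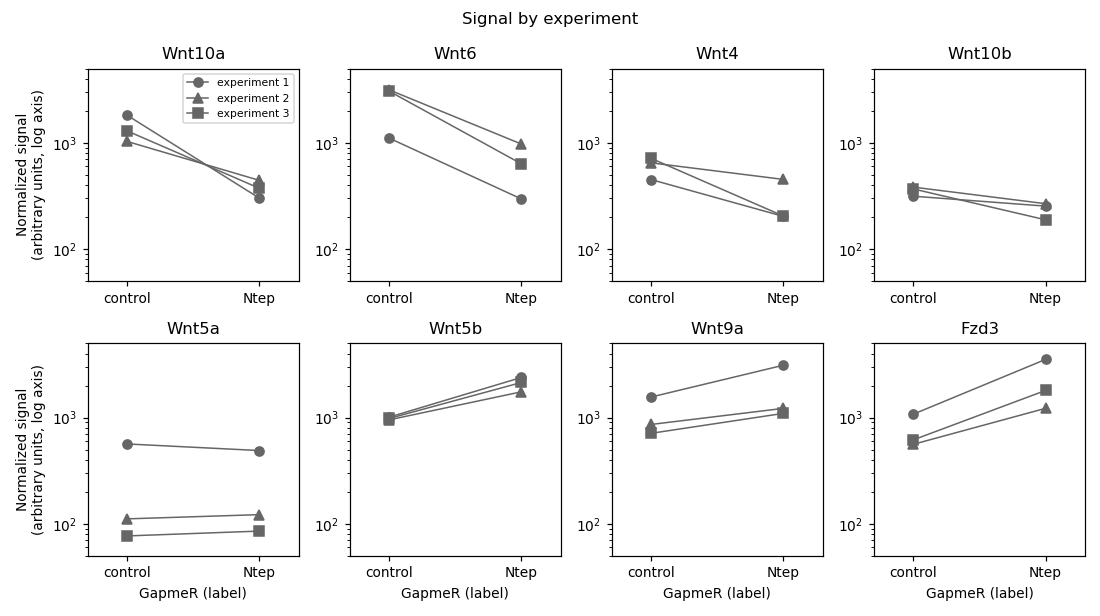
Normalized signal on a log axis for 7 ligands and Fzd3, each line joining the GapmeR control array to the array labelled GapmeR Ntep of the same experiment. The 3 lines run down for Wnt10a, Wnt6, Wnt4 and Wnt10b and up for Wnt5b, Wnt9a and Fzd3, while those for Wnt5a are nearly flat and far apart.

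The other 5 ligands measured on all arrays did not pass either threshold in the main limma test. Wnt4, known from kidney and gonad development, read 203, 452 and 204 against 450.1, 647 and 712, and the highest array labelled GapmeR Ntep just exceeded the lowest control array. Its difference was -1.16 (SE 0.38, adjusted p = 0.132), and it passed adjustment only without GapmeR Ntep replicate 2 (adjusted p = 0.0487) and with array weights (0.00902). Wnt10b, a ligand that holds back fat cell formation, read 254, 267 and 189 against 314, 383 and 368, which do not overlap. Its difference was -0.60 (SE 0.21, adjusted p = 0.143, with array weights 0.0102). Wnt1 by its probe of higher signal read 342, 258 and 314 against 246, 198 and 233. These groups did not overlap either, and the difference was 0.43 (SE 0.19, adjusted p = 0.229, with array weights 0.0393).

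Wnt9a and Wnt5a varied more between experiments than between GapmeRs. Wnt9a read 3107, 1220 and 1094 against 1561, 861 and 711, higher in each experiment, for 0.71 (SE 0.50, adjusted p = 0.425). Wnt5a, the best known non-canonical ligand of fibroblasts, read 489, 122 and 85.3 against 564, 111 and 76.8. Both arrays of experiment 1 stood far above the other 4, and within experiments the differences were -0.21, 0.13 and 0.15. The unpaired difference was 0.03 with a 95% interval of -2.32 to 2.37, a wide limit on a change in Wnt5a. With the experiment as a block the difference was the same, with an SE of 0.15 (limma, adjusted p = 0.918), so the limit within experiments was narrower.

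The ligands include pairs of neighbouring genes. The probes of Wnt6 and Wnt10a lie 19112 bases apart on chromosome 1, and both genes were lower in every experiment. Those of Wnt1 and Wnt10b lie 21932 bases apart on chromosome 15, and these genes differed in opposite directions in every experiment, Wnt1 higher and Wnt10b lower.

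Ligands at the edge of detection gave no call. Wnt11, a non-canonical ligand, was well above background on all 3 control arrays and 1 array labelled GapmeR Ntep, at 43.0, 64.0 and 20 against 51.0, 144 and 127 (-1.36, SE 0.57, adjusted p = 0.209). Wnt7a differed by -0.05 (adjusted p = 0.940), with 3 arrays well above background. Wnt7b was well above background on 2 control arrays and on no array labelled GapmeR Ntep, with means of 65.7 and 46.3. Its groups overlapped (adjusted p = 0.427), and no fold is given. Wnt1 by its other probe, Wnt3a, both Wnt16 probes and 1 of the Wnt8b probes were well above background on 1 array each.

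**Figure D4:**
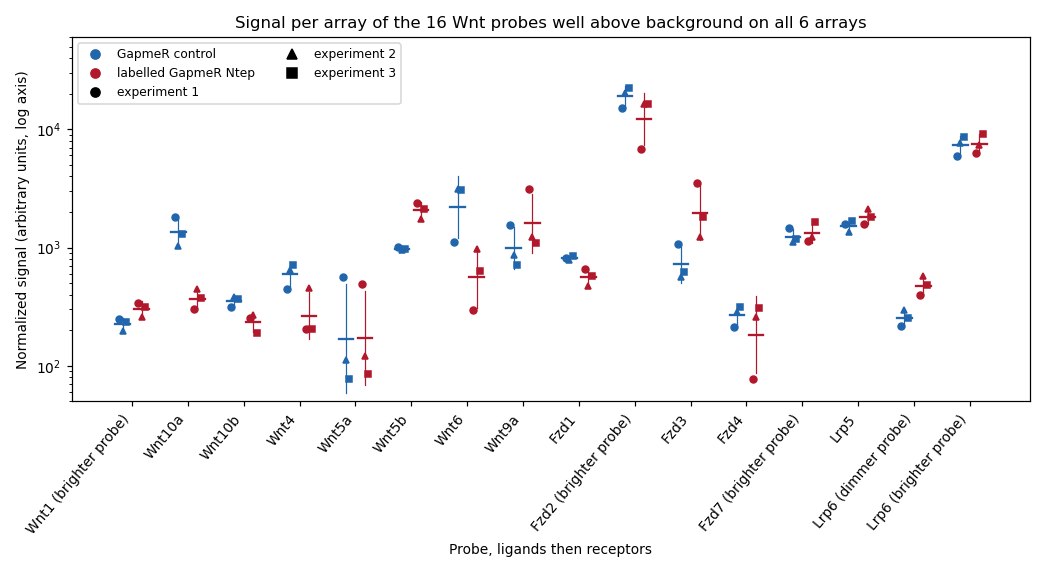
Normalized signal per array, on a log axis, of the 16 probes well above background on all 6 arrays, in blue for GapmeR control and red for arrays labelled GapmeR Ntep, with a symbol per experiment. Horizontal lines are means and vertical lines SDs of the log2 values; signals of different probes are not comparable in height. Wnt10a and Wnt6 sit lower and Wnt5b and Fzd3 higher in red, whereas Wnt5a splits by experiment.

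Among the remaining receptors no probe passed a threshold in the main limma test, and Fzd1 alone had an unadjusted p under 0.05 (0.0260). Fzd1 read 656, 476 and 574 against 821, 788 and 842, lower without overlap (-0.54, SE 0.18, adjusted p = 0.142, with array weights 0.0208). Fzd2, a receptor for Wnt5a among others, read 6799, 16440 and 16324 against 15020, 20331 and 22285 by its probe of higher signal (-0.63, SE 0.40, adjusted p = 0.373) and gave -1.29 (adjusted p = 0.298) by the other. Both Fzd2 probes were lowest on the array of GapmeR Ntep replicate 1. Fzd4, the receptor for norrin and for Wnts in vessels, read 77.4, 258 and 310.4 against 212, 283 and 316 (-0.54, adjusted p = 0.568). Here too GapmeR Ntep replicate 1 stood low, and without that array alone the unpaired difference was 0.09. Within experiments 1, 2 and 3 Fzd4 differed by -1.45, -0.13 and -0.03.

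Fzd7 and Lrp5 gave small differences. Fzd7 read 1130, 1239 and 1632 against 1455, 1105 and 1175 (0.09, 95% interval -0.44 to 0.62, adjusted p = 0.818), and its probe of lower signal gave -0.77 (adjusted p = 0.471). Lrp5, the other co-receptor, read 1581, 2117 and 1823 against 1573, 1359 and 1684 (0.25, 95% interval -0.21 to 0.72, adjusted p = 0.451). Ror1 was well above background on 1 control array by 1 of its probes.

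The genes around the ligands and receptors were then read from 4 lists of 96 genes in all, of which 78 were tested. By any of their probes 9 were higher by the same 2-fold rule (11.5%), beside 3.69% of all gene names tested, and 5 were lower (6.41%), beside 5.87%. At an adjusted p of 0.05, 8 were higher, beside 2.59%, and 4 lower, beside 3.84%. For each of these 12 genes the adjusted p rose above 0.05 when 1 of at least 4 arrays was left out (highest 0.174), without a change of direction. With the experiment as a block the 2-fold rule gave 10 higher, beside 5.46% of all gene names, and 9 lower, beside 7.83%. The methods' t-test left none of the 12 past adjustment (adjusted p from 0.0521 for Ahr to 0.127 for Fgf18). Genes with more probes have more chances to be counted. The lists were also chosen with earlier results of these data known, so these shares describe the lists and test nothing about the pathway. The median over the 122 tested probes was -0.02.

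None of the 14 tested genes for Wnt secretion and surface regulation passed either rule in limma, and 4 had an unadjusted p under 0.05, beside 28.9% of all gene names. Porcn, which attaches the lipid to Wnt proteins, read 774, 723 and 633 against 1142, 1101 and 1174 (-0.69, SE 0.16, adjusted p = 0.0659). Wls, the carrier that takes Wnts to the cell surface, read 36425, 35290 and 28659 against 49432, 46823 and 43070 (-0.48, SE 0.18, adjusted p = 0.163). Both were lower on every array labelled GapmeR Ntep than on any control array. Ryk, a Wnt receptor, differed by -0.67 (adjusted p = 0.0720), Ptk7 by -0.65 (0.388) and Lgr4, a receptor for R-spondins, by -0.56 (0.464). Znrf3, a ligase that removes Frizzled receptors from the surface, differed by 0.84 (0.0873). Sost and R-spondins 1, 2 and 4 were well above background on no array.

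In the cytoplasmic and nuclear part 30 genes were tested. By the 2-fold rule 4 were higher (13.3%) and 3 lower (10%), beside 3.69% and 5.87% of all gene names. Csnk1a1, the casein kinase 1 that places the first phosphate on beta-catenin, fell by both of its probes. One read 7097, 12321 and 11124 against 73380, 55294 and 52149 (-2.59, SE 0.27, adjusted p = 0.0219). The other read 281, 526 and 542 against 4367, 3146 and 3199 (-3.03, SE 0.32, adjusted p = 0.0204). No other gene named here had so large a fall.

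Other members of the beta-catenin destruction machinery changed by 1 probe each. Gsk3b, the kinase that follows Csnk1a1, was higher by 1 probe (1.08, adjusted p = 0.0326) while its others gave -0.48 (0.266) and -1.22 (0.147), so no direction can be given for the gene. Tnks2, a tankyrase that marks Axin for removal, rose by 1 probe (1.5, 0.0299) and differed by 0.06 (0.847) by the other. Axin1, the scaffold, rose by 0.89 (0.0482) near the threshold, and it missed it with 75th percentile scaling (0.0537), a floor of 1 (0.0504), no intensity filter (0.0676) and without any 1 of the arrays. Btrc, the ubiquitin ligase subunit that binds phosphorylated beta-catenin, was lower (-1.08, 0.0335; second probe -0.43, 0.417). The related kinases Csnk1d (1.01, 0.0353) and Csnk1e (1.33, 0.0338) rose by 1 probe each, while a second Csnk1d probe gave -0.14 (0.722) and other Csnk1e probes 0.32 and 0.47. A Tcf7l2 probe passed the test but was not well above background on any array, so no fold is given. Dact1, a Dishevelled-binding protein, was lower without overlap by both probes (-2.30, adjusted p = 0.0976, blocked 0.0337; and -1.59, 0.122, blocked 0.0633), the first well above background on 4 arrays. Its relative Dact3 passed the 2-fold rule with the block alone (-1.02, adjusted p = 0.281, blocked 0.0583). Ctnnb1, beta-catenin itself, read 24749, 27905 and 28313 against 33047, 39407 and 38206 (-0.45, adjusted p = 0.164).

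In the planar polarity and calcium branch 18 genes were tested. Vangl1, a core polarity protein, rose by 1 probe (1.38, SE 0.25, adjusted p = 0.0378) and differed by 0.26 (0.446) by the other. Celsr1, a polarity cadherin, passed the fold rule alone (1.08, adjusted p = 0.0664, blocked 0.0453). Plcb1, a phospholipase upstream of calcium release, was lower by 3 probes that passed the fold rule (-2.37, -1.53 and -1.63, adjusted p 0.0595, 0.0533 and 0.0530, blocked 0.0356, 0.0469 and 0.0569). Prickle1, another core polarity protein, passed the 2-fold rule with the block alone (-1.10, adjusted p = 0.172, blocked 0.0581).

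Of the genes known as Wnt targets in some cell types, 22 were tested and by the 2-fold rule 3 were higher and 1 lower, beside the 3.69% and 5.87% of all gene names given above. Fgf18 read 8751, 1768 and 2438 against 475, 456 and 358 (2.98, SE 0.60, adjusted p = 0.0482), and its second probe gave 3.00 (0.0591, blocked 0.0482). Without GapmeR Ntep replicate 1 the first probe gave 2.30 (adjusted p = 0.0340), and it missed the threshold with 75th percentile scaling (0.0519), a floor of 1 (0.0517) and no intensity filter (0.144). Jun, an AP-1 subunit, read 16715, 9931 and 13195 against 4797, 2806 and 3046 (1.91, adjusted p = 0.0320). Fosl1, another AP-1 subunit, differed by 2.66 (0.0797, blocked 0.0310). Ahr, the aryl hydrocarbon receptor, read 580, 799 and 786 against 3214, 2944 and 2357 (-1.98, adjusted p = 0.0224). With the block alone, 1 Cd44 probe (1.37, adjusted p = 0.125, blocked 0.0356) and Wisp2 (-1.35, 0.346, blocked 0.0435) also passed, Wisp2 well above background on 4 arrays. Myc (0.22, adjusted p = 0.540) and Ccnd1 (0.13, 0.80) did not pass, and Bambi, Lgr5, Sp5 and Tcf7 were well above background on no array.

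**Figure D5:**
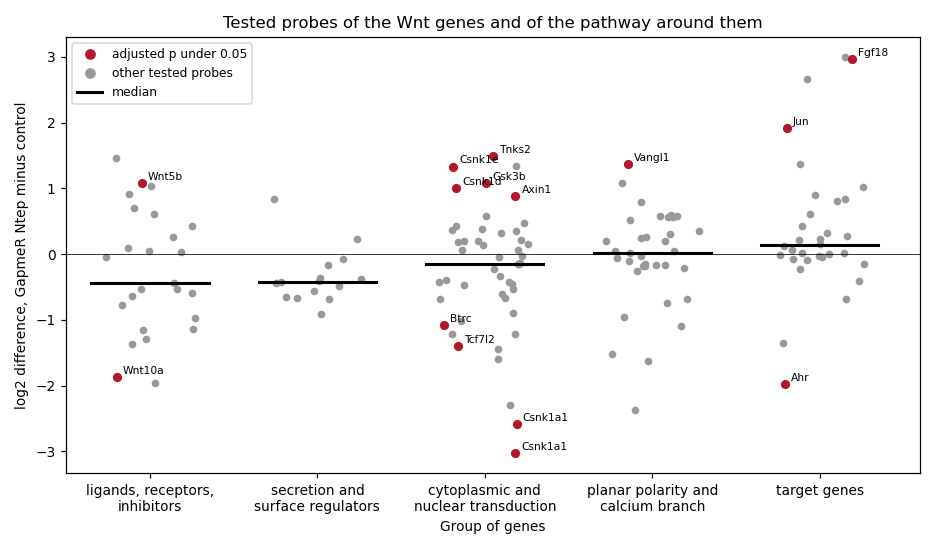
Log2 differences of the tested probes of the Wnt genes and of 4 lists of genes of the pathway, 1 point per probe, red where the adjusted p was under 0.05, with a bar at the median. Csnk1a1 is the lowest by 2 probes, and the surface regulators cluster slightly below 0 without a call.

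Promoter sequence was read for Wnt5b, the ligand called higher, since its gene has several starts. The RefSeq table for GRCm38.p6 holds 33 windows for 30 of the 44 genes, and none was used for Wnt10a, Fzd3 or Lrp6. The 250 bases before each start were searched on both strands for CTTTGAT, a core of TCF/LEF sites, and TGACTCA, the AP-1 site, motifs that do not overlap here. CTTTGAT stood in 2 of the 33 windows (6.06%), those of Wnt5b and Wnt11, and in 3.21% of all 32851 windows. TGACTCA stood in 2 (6.06%), of Wnt5b and Ror2, and in 4.46% of all. Of the 3 windows of Wnt5b, the one furthest upstream holds an AP-1 match on the opposite strand, 191 bases before the start, and the one furthest downstream a TCF/LEF match 71 bases before the start, both in capitals.
Wnt5b, upstream start, chr6:119544348-119544597, - strand: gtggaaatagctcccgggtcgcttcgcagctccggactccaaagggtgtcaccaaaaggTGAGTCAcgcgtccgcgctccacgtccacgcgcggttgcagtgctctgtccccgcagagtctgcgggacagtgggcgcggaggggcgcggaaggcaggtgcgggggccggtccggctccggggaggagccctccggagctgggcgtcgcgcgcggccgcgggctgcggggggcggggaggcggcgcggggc
Wnt5b, downstream start, chr6:119449387-119449636, - strand: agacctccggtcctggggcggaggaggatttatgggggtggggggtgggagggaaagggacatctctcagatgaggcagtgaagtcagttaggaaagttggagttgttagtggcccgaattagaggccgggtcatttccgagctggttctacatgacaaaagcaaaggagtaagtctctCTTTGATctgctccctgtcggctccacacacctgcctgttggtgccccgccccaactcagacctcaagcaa
The G+C content was 75.2% upstream and 55.6% downstream. The single window of Wnt6 held neither motif. The Wnt5b probe cannot tell which start its transcripts used, and a match is only a run of letters.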

How the data were processed

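Total RNA of 3T3 cells was hybridised to 6 one-colour Agilent arrays. Per the labels and the submitters' processing notes, the authors extracted signals with Agilent Feature Extraction 10.7.3.1 and deposited them as scanner output, whose intensity column is background-subtracted, plus a table of quantile-normalized intensity with a floor of 20. The methods name a 4x180K array, but the scanner files hold 62976 spots each. Here spots of a probe were averaged, control spots left out, and processed signals quantile normalized, set to at least 20 and log2 transformed. Where the mean of either group reached 50, probes were tested two-sided with limma 3.58.1 (lmFit, eBayes) in R 4.3.3, unpaired, with Benjamini-Hochberg adjustment over all 30990. A call needed a fold change of 2 and p under 0.01, or an adjusted p under 0.05. Tables were made with Python 3.11.15. The deposited value table correlated with these values at r = 0.99996 on the log2 scale. Of its values 84.8% lay within 0.01 log2, and the largest difference was 9.35. No column was left unassigned.

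Arrays carry their experiment's number, from the study's own pairing of them. Residuals of same-numbered arrays correlated at 0.466, 0.300 and 0.254, so the numbers pair the samples, and fits with the experiment as a block are given where a call changes. Arrays labelled as replicates come from 3 independent experiments, and their number limits the precision. No spot was saturated.

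The Wnt genes and the pathway and marker lists were chosen with earlier results of these data known. Named are all members past a threshold or well above background on all arrays, and of each list the genes past adjustment or else up to 6 with the smallest p, taken from probes that all 6 arrays showed well above background. Ctnnb1, Myc, Ccnd1, Celsr1, Plcb1, Fosl1, Dact1, Dact3, Prickle1, Cd44, Wisp2 and the marker genes were named in addition, after their values were seen. The fit was tested on simulated data with known changes. Of 100 probes set to a 2-fold change, 34% met the fold rule and 1% passed adjustment. Of 100 set to a 4-fold change, 86% and 40% did. Among unchanged probes, 211 met the fold rule and 8 passed adjustment. In the simulation a 2-fold change thus often went without a call. No other probes were changed there, and the spreads were those of signals before normalization. In the data 7761 of the 30990 tested probes had an unadjusted limma p under 0.05. The simulated shares, above all those after adjustment, therefore do not give the power of the test on these arrays. Alternatives were 75th percentile scaling, normexp with an offset of 50, a floor of 1, other filters, the deposited values, removal of outlier spots, the block, the methods' t-test, trend, array weights and omission of each array.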

Additional observations from a re-analysis of the deposited data

How the results depend on the processing

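Over 17 alternatives, the differences of 30 named probes were recomputed 507 times, and 384 kept their direction and their side of the adjusted threshold, 102 no longer passed, 12 newly passed and 9 turned. Scaling to the 75th percentile moved the median difference of all probes by 0.16. The causes of the shifts below were not tested.

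For member probes at a fold of 2 and p under 0.01, 1 was higher and 1 lower. With the experiment as a block (replicate block) these became 2 and 2, with array weights 3 and 5, with trend 1 and 2, and after normexp 0 and 1. At an adjusted p of 0.05, also 1 and 1, the block gave 3 and 2, array weights 5 and 7, and the filter on probes well above background 2 and 1. Testing without an intensity filter gave 0 and 0, as did the methods' t-test (adjusted p = 0.0744 for Wnt10a and 0.0608 for Wnt5b). Without each array in turn, the counts were 1 to 3 higher and 1 to 3 lower by the fold rule and 0 to 2 in either direction after adjustment. Pathway genes, 9 higher and 5 lower, became 5 higher after normexp, and 9 lower with the block and 10 lower with array weights.

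Wnt5a turned to -0.0024 after normexp and ran from -0.74 to 0.89 when single arrays were left out. Fzd4 then ran from -0.91 to 0.087, Fzd7 from -0.063 to 0.21, the Lrp6 probe of higher signal from -0.11 to 0.17 and the Ntep probe from -1.09 to 0.13. Members near background, such as Sfrp5, Dkk4, Wnt11 and Axin2, cannot be judged at this signal.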

Other observations

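Several genes of the pathway were read by more than 1 probe well above background on all arrays, and the probes of a gene did not always move together. The genes below were picked after their values were seen. For Lrp6 the log2 ratio of the probe of lower signal over that of higher signal came to -4.00, -3.69 and -4.25 with GapmeR Ntep and to -4.76, -4.70 and -5.08 with GapmeR control. The groups did not overlap, and the ratio was higher by 0.87 (two-sided exact permutation p = 0.1, the smallest that 3 against 3 allows). The ratio of Gsk3b probes was higher by 1.56 and 2.30, that of the probe with the rise over each of the others, and the ratio of Csnk1d probes by 1.15. For Tnks2 it differed by -1.44 and for Vangl1 by -1.12, the probe without a call over that with the rise, and all of these also had an exact p of 0.1. Both Csnk1a1 probes fell, and their ratio also separated the groups, with a smaller difference of 0.45 (exact p = 0.1). Since the genes were picked for what their probes showed, these ratios describe the arrays and test nothing further. Which transcripts carry each stretch was not tested.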
